A study of Mus musculus with 24 samples.

Results

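The miR-17-92 cluster and its paralogues were followed through 12 columns of mouse small RNA counts by 9 of the 1915 mature miRNAs and 11 of the 1186 hairpins listed. The members were listed by name. The mature members are mmu-miR-17-5p, mmu-miR-18a-5p, mmu-miR-19a-3p, mmu-miR-20a-5p, mmu-miR-19b-3p and mmu-miR-92a-3p of miR-17-92, and mmu-miR-106b-5p, mmu-miR-93-5p and mmu-miR-25-3p of miR-106b-25, with the mouse prefix mmu left off from here on. The hairpins are mir-17, mir-18a, mir-19a, mir-20a, mir-19b-1 and mir-92a-1 of the first locus, mir-19b-2 and mir-92a-2 of the X-linked miR-106a-363 locus, and mir-106b, mir-93 and mir-25 of the third.

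The study sequenced serum exosomes, exosomes of primary hepatocytes, primary hepatocytes and liver, each untreated, after the liver toxicant acetaminophen, and after acetaminophen plus G-CSF, the granulocyte growth factor. Liver and serum exosomes came from mice given acetaminophen at 500 mg/kg, with G-CSF at 100 µg/kg in the third group. Hepatocytes, and the cultures that gave hepatocyte exosomes, received acetaminophen at 20 mM, with G-CSF at 1 µg/ml in the third group. Each of the 12 conditions had 2 libraries, from an Ion Torrent PGM and an Ion Torrent Proton instrument, but the deposited tables hold their combined count, so every condition is 1 column without a replicate. The labels name no strain, age or number of animals, and the dosed material differs between animals and cultures.

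A primary transcript of such a cluster is cut into separate hairpins, each hairpin gives a mature miRNA, and the seed of that miRNA directs it to messenger RNAs. The 3 clusters arose by duplication of an ancestral cluster and share some of their seeds, with neither the miR-18 nor the miR-19 seed in miR-106b-25. The miR-17 seed is known for repressing the cell cycle inhibitor Cdkn1a and the miR-92 seed for repressing the pro-apoptotic gene Bcl2l11, and miR-17-92 is a transcriptional target of Myc and E2F factors in proliferating cells.

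The mature sequences fall into 4 seed groups, and they are shown because near-identical sequences share counts. Sequences are 5′ to 3′ from RefSeq (GRCm38.p6), and capitals mark the seed, bases 2 to 8. The last pair, miR-106a-5p and miR-18b-5p, are no members but are near-copies whose counts bear on the results.
miR-17-5p: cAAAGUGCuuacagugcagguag
miR-20a-5p: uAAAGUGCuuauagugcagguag
miR-106b-5p: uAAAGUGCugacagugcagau
miR-93-5p: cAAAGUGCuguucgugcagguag
miR-18a-5p: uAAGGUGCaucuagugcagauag
miR-19a-3p: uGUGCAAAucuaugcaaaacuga
miR-19b-3p: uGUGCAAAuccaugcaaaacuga
miR-92a-3p: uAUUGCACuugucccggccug
miR-25-3p: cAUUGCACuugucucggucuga
miR-106a-5p: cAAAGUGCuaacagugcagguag
miR-18b-5p: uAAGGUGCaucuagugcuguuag
Seed AAAGUGC occurs in 7 of the 1679 mature miRNAs of the reference, AAGGUGC in 2, GUGCAAA in 2 and AUUGCAC in 6. Between the listed members and near-copies the differences are few, counted from the 5′ end of the first-named miRNA. miR-19a-3p and miR-19b-3p differ by U11C. miR-18a-5p and miR-18b-5p differ by A18U and A20U. miR-106b-5p and miR-106a-5p differ by U1C, G10A and A20G. miR-92a-3p differs from miR-92b-3p by U10C and G21C. miR-93-5p is farther from miR-17-5p, by U10G, A11U, C12U and A13C.

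In GRCm38 the miR-17-92 locus spans 836 bases at chr14:115043671-115044506 on the plus strand, and its 6 hairpins overlap an exon of the long non-coding RNA Mir17hg. The miR-106b-25 locus spans 498 bases at chr5:138165321-138165818 on the minus strand, within Mcm7, a subunit gene of the replicative helicase. There mir-106b is intronic in every annotated transcript, while mir-93 and mir-25 overlap an exon of at least 1 transcript. The miR-106a-363 locus spans 875 bases at chrX:52741693-52742567 on the minus strand, and the annotation gives no host gene for mir-19b-2 and mir-92a-2. In the same locus mir-106a, which is no member, overlaps an exon of the processed transcript Kis2. Since miR-19b-3p and miR-92a-3p can each come from 2 hairpins, on chromosomes 14 and X, their mature counts cannot be assigned to a locus.

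Depth set what could be seen. Mature counts summed to 26741, 5330 and 4450 in control, acetaminophen and acetaminophen with G-CSF hepatocytes, and to 49330, 19695 and 43698.7 in the corresponding liver columns. Control serum exosomes had 6515.3, whereas the treated serum exosomes and all hepatocyte exosomes had 47 to 692. Hairpin counts were 25.1 to 33.7 times the mature counts in the 7 deeper columns, other than liver after acetaminophen, where they were 5.65 times the mature counts. The liver acetaminophen column therefore stands apart. For serum exosomes, sample titles and treatment field name the acetaminophen and the acetaminophen with G-CSF columns the opposite way round. The treatment field was followed, and each serum result was also computed with the columns exchanged.

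Near-identical members did not carry separate counts. Many member counts are fractions, and miR-18a-5p equalled miR-18b-5p in 4 of the 4 columns with any count. Likewise miR-106b-5p equalled miR-106a-5p in 6 of 7, and miR-92a-3p equalled miR-92b-3p in 5 of 7. miR-19a-3p and miR-19b-3p had unequal counts, the lower being 68.1% to 94.9% of the higher. Their sum was a whole number in 6 of 7 columns, against 2 of 7 for each alone, so this pair shared counts too. Summed over all 6 listed miRNAs of the miR-17 seed, the counts were whole numbers, within 0.001, in 8 of 9 columns, against 2 of 9 for the 4 members alone. The sources used here do not say how reads were divided among similar sequences. By contrast miR-93-5p was whole in 7 of 7 columns and miR-25-3p in 5 of 6. Hairpins showed the same closeness. The lower of mir-18a and mir-18b was 86% to 99.3% of the higher, that of mir-19b-1 and mir-19b-2 was 90.9% to 99.6%, and that of mir-92a-1 and mir-92a-2 was 87.2% to 100%. Values of such members are thus values of a sequence family, and several members that move together are not separate observations.

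**Figure D1:**
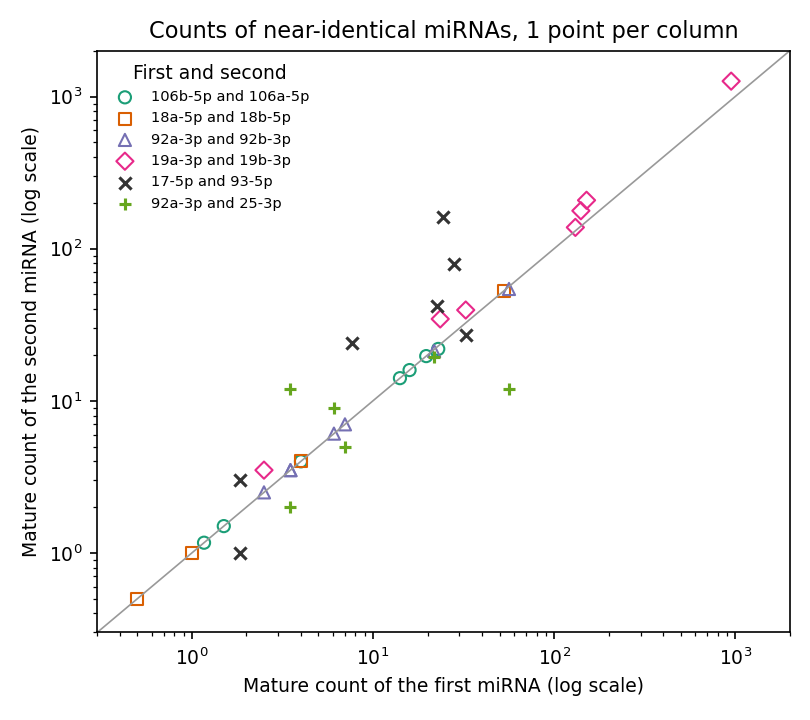
Deposited mature counts of 6 pairs of related miRNAs, the first-named on the x axis and the second on the y axis (log scales), 1 point for each of the 7 deeper columns in which both had a count; the line marks equality. The pairs miR-106b-5p with miR-106a-5p, miR-18a-5p with miR-18b-5p and miR-92a-3p with miR-92b-3p lie on or close to the line, miR-19a-3p with miR-19b-3p lies just above it, and miR-93-5p and miR-25-3p scatter away from their relatives.

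The members were most abundant in untreated hepatocytes. The 9 mature members made up 8.94% of all mature counts there (95% Wilson interval 8.6% to 9.29%), against 1.53% after acetaminophen and 1.54% with G-CSF. In liver the shares were 1.18% in control, 1.89% after acetaminophen and 1.31% with G-CSF, and in control serum exosomes 0.949%. The hairpin shares were 10.4% in control hepatocytes, 1.67% and 2.05% in treated hepatocytes, 1.78%, 2.51% and 2.11% in the 3 liver columns, and 1.66% in control serum exosomes. Intervals here and below cover counting error only, and reads without molecular identifiers are not independent molecules.

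Most of the member counts in control hepatocytes were of the miR-19 pair, 92.6% of the mature ones. miR-19b-3p had 1262.45 counts and ranked 4th of 284 detected mature miRNAs, and miR-19a-3p had 949.45 and ranked 5th. In the hairpin table mir-19b-1, mir-19b-2 and mir-19a ranked 7th, 8th and 9th of 653, at 31258, 31122 and 30636 CPM, the count scaled to the column total. Every other member hairpin was at or below 3252 CPM in that column. mir-17 had 3252, mir-18a 2524, mir-93 1875, mir-20a 1481, mir-106b 1102, mir-25 516, mir-92a-1 316 and mir-92a-2 276. The order among the 3 miR-19 hairpins cannot be told apart from the sharing of counts.

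Control liver had a flatter order with mir-93, of the Mcm7 locus, at its head. mir-93 had 4696 CPM, followed by mir-19b-1 at 2974, mir-19b-2 at 2907, mir-19a at 2828 and mir-17 at 1293. The remaining 6 hairpins lay between 89.5 (mir-18a) and 709 (mir-92a-1). In mature counts, miR-19b-3p (177.5), miR-93-5p (162) and miR-19a-3p (140.5) led, and miR-18a-5p was near the limit of detection at 0.5.

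Control serum exosomes put the miR-106b-25 members on top. miR-93-5p had 24 counts, miR-25-3p 12, miR-17-5p 7.67, miR-20a-5p 4.67, miR-106b-5p 4, miR-19b-3p and miR-92a-3p 3.5 each, miR-19a-3p 2.5 and miR-18a-5p 0. A count of 0 there allows a share of up to 0.0461%. With so few counts the neighbours below miR-25-3p in this order cannot be told apart. Among hairpins, mir-93 had 6682 CPM and mir-17 and mir-25 had 1929 and 1881. mir-106b followed with 1499, both mir-92a hairpins stood at 1079, and the 3 miR-19 hairpins were at 430 to 441.

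**Figure D2:**
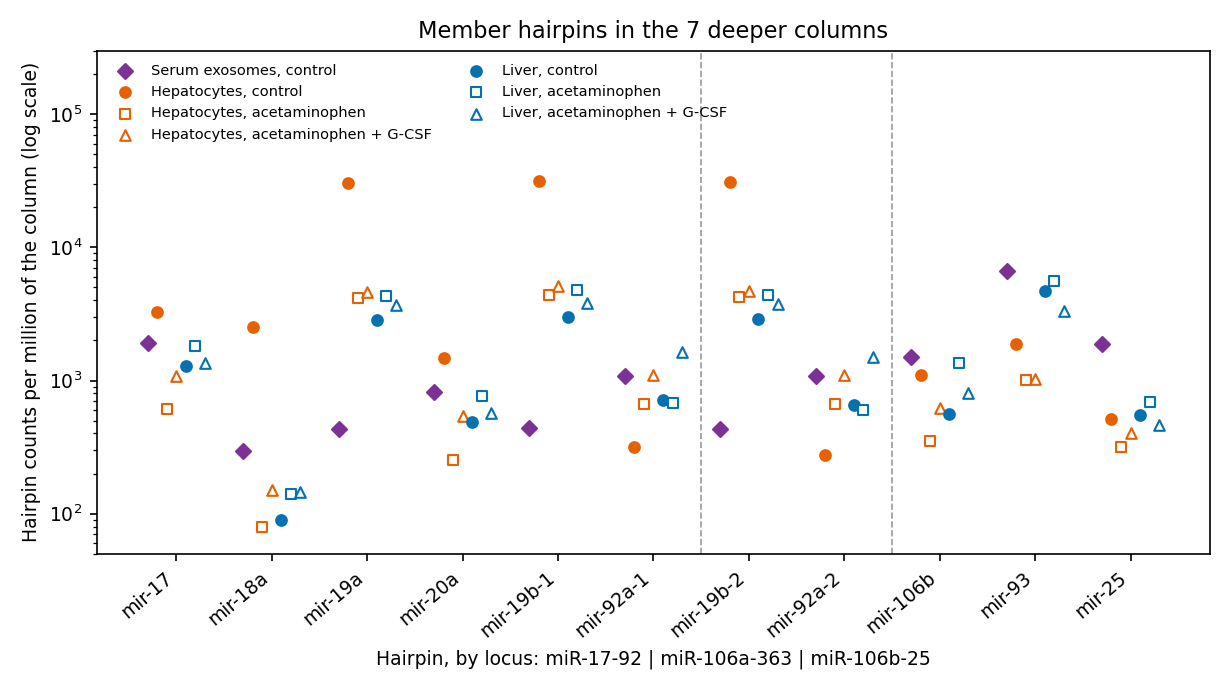
Hairpin CPM (log scale) for the 11 member hairpins in the 7 deeper columns; colours give the material and filled symbols the controls. Control hepatocytes stand above the other columns for mir-19a, mir-19b-1, mir-19b-2 and mir-18a and below them for the mir-92a hairpins, and control serum exosomes are the highest for mir-93 and mir-25.

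Compared by locus, the miR-106b-25 hairpins held 3.35% of the member hairpin counts in control hepatocytes (exact binomial interval 3.23% to 3.47%), 32.7% in control liver (32.1% to 33.3%) and 60.7% in control serum exosomes (58.9% to 62.4%). Treated hepatocytes had 10% in either column. Liver had 30.2% after acetaminophen and 21.7% with G-CSF. The low share in control hepatocytes rested largely on the miR-19 hairpins, which were left out in a comparison added after these values were seen. Without them miR-106b-25 had 30.8% in control hepatocytes, 64.2% in control liver and 65.9% in control serum exosomes. Mature counts of members with a single locus gave 5.25%, 51.6% and 72.9% in the same 3 columns. The order of the 3 control columns was the same in each of these counts, although without the miR-19 hairpins the intervals of liver (63.3% to 65%) and serum exosomes (64.1% to 67.6%) overlapped. Within a condition there is 1 column, so these differences have no replicate check. Nor are the single-locus mature members a clean check by locus. miR-18a-5p and miR-106b-5p share counts with X-linked miR-18b-5p and miR-106a-5p. Among hairpins of hepatocytes and liver, the lower of mir-106a and mir-106b was 66.9% to 100% of the higher.

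Compared by seed, with all listed miRNAs of a seed summed, miR-19 held 89.1% of the counts in control hepatocytes, 50.8% in control liver and 8.45% in control serum exosomes (exact interval 3.17% to 17.5%). The miR-17 seed held 5.59%, 39% and 64.8%, and the miR-92 seed 1.014%, 10.1% and 26.8%. The miR-18 seed reached 4.27% in control hepatocytes and at most 1.21% elsewhere. After acetaminophen the miR-92 seed had 5.81% in hepatocytes, from 5 counts, and 12.2% with G-CSF, from 9 counts. In liver the same seed had 4.96% after acetaminophen and 18.6% with G-CSF.

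**Figure D3:**
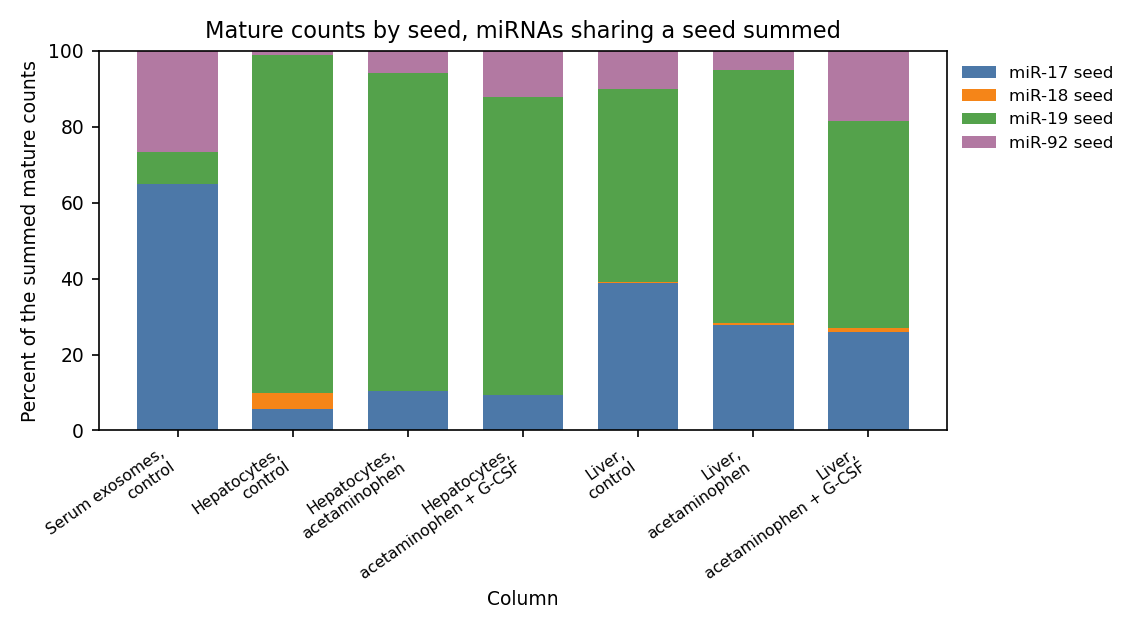
Percent of the summed mature counts of the 4 seed groups (members and the other listed miRNAs of the same seed) in the 7 deeper columns. The miR-19 seed takes 89.1% in control hepatocytes, 50.8% in control liver and 8.45% in control serum exosomes, where the miR-17 seed takes 64.8%.

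Hepatocytes after acetaminophen were compared with control hepatocytes, the comparison of injured with untreated cells in culture. A difference between 2 columns was called where either had at least 10 counts, the ratio of TMM-scaled counts was at least 2-fold, and its exact 95% interval excluded equality. It describes 2 columns and is no test of the condition. By this rule 8 of the 11 hairpins were lower and 0 higher, where 32.1% of all 302 hairpins tested were lower and 30.1% higher. The median log2 ratio of the members was -2.7 against -0.25 over all tested. Control, acetaminophen and G-CSF columns of mir-18a had 2116.5, 14.3 and 21 counts. It was 38.7-fold lower after acetaminophen (interval 23.6 to 72.6), the farthest of the members. mir-19a had 25691.8, 744 and 642 counts and was 9.05-fold lower (8.42 to 9.76), and mir-19b-1 and mir-19b-2 were 8.71-fold and 9.02-fold lower. mir-20a and mir-17, of the miR-17 seed and the same polycistron, were 7.11-fold and 6.51-fold lower.

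The miR-106b-25 hairpins and both mir-92a hairpins had smaller ratios. mir-106b was 3.82-fold lower (2.98 to 5.05) and mir-93 was 2.28-fold lower (1.95 to 2.67), while mir-25 was 1.99-fold lower and missed the rule. With column totals in place of TMM mir-93 had a log2 ratio of -0.9 and also missed the rule, and over the alternatives 7 to 11 of the 11 hairpins were called. mir-92a-1, whose mature miRNA shares the seed of miR-25-3p, had 265.25, 120.7 and 153.6 counts in the 3 columns. Relative to the column it was 1.74-fold higher after acetaminophen, also short of the rule, and mir-92a-2 was 1.97-fold higher. Thus the 6 hairpins listed under miR-17-92 ranged from 38.7-fold lower to 1.74-fold higher in the same pair of columns. Both extremes are family values and cannot be assigned to this transcript. mir-18a shares counts with X-linked mir-18b, and mir-92a-1 with X-linked mir-92a-2.

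Mature counts of the same comparison were sparser. Of 7 members with enough counts 3 were lower and 0 higher, where 27% of 100 mature miRNAs tested were lower and 26% higher, and the median log2 ratio was -1.9 against -0.47 over all tested. miR-19b-3p had 1262.45, 39.5 and 34.5 counts in control, acetaminophen and G-CSF columns. It was 6.07-fold lower after acetaminophen (4.38 to 8.43). miR-19a-3p, with 949.45, 32.5 and 23.5 counts, was 5.55-fold lower (3.97 to 8.29). miR-18a-5p had 53, 0 and 0 counts and was at least 3.36-fold lower, computed against a floor of 3 counts. Summed by seed, miR-19 went from 2211.9 to 72 counts, 5.84-fold lower (4.62 to 7.49). The miR-18 seed had 0 counts after acetaminophen and was at least 6.72-fold lower, by the same floor. The miR-17 seed went from 138.7 to 9 counts, 2.93-fold lower (1.5 to 6.55). The miR-92 seed had 25.2 and 5 counts, a ratio of 1.05 whose interval of 0.315 to 2.8 holds both a loss and a gain of more than 2-fold, and with column totals the ratio was 0.997.

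Acetaminophen with G-CSF, compared with the same control column, gave 7 lower and 2 higher hairpins of 11, where 32.4% and 27.2% of 290 tested were lower and higher. mir-92a-1 was 3.12-fold higher (2.55 to 3.83) and mir-92a-2 3.57-fold higher (2.91 to 4.42), and mir-18a was 18.7-fold lower (12.2 to 30.3). The miR-19 hairpins were 6.78-fold to 7.44-fold lower. Of the mature members 3 of 7 were lower, where 29% of 100 tested were lower and 23% higher. Both treated columns share the control column, so they are not 2 separate observations of the difference.

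G-CSF added to acetaminophen was compared with acetaminophen alone. In hepatocytes mir-20a was 2.34-fold higher (1.6 to 3.44; 76.05 against 45.8 counts) and mir-18a 2.07-fold higher (1.03 to 4.5; 21 against 14.3 counts), 2 of 11 hairpins where 7.83% of 230 tested were higher and 14.3% lower. The other 9 member hairpins had ratios between 1.11 (mir-93) and 1.94 (mir-106b) and missed the rule. The mature miR-19 seed had 58 against 72 counts, a ratio of 1.03 (0.716 to 1.48), and 0.965 with column totals.

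Liver from mice given acetaminophen did not show the hepatocyte pattern in the column ratios. Among hairpins 1 of 11 was higher and 0 lower, where 16.9% and 19.2% of 432 tested were higher and lower. That one was mir-106b, at 730, 149.4 and 884 counts in control, acetaminophen and G-CSF columns and 2.14-fold higher after acetaminophen (1.78 to 2.55). mir-18a, the hairpin with the lowest ratio in culture, had 117, 15.7 and 160 counts in liver, or 89.5, 140.7 and 145.9 CPM. In mature counts 4 of 8 members were higher and 0 lower, where 23.1% and 27.5% of 160 tested were. miR-19a-3p was 2.61-fold higher (2.05 to 3.35; 131 against 140.5 counts in a column of fewer total counts) and miR-19b-3p 2.17-fold higher (1.72 to 2.72). miR-17-5p was 2.59-fold higher (1.37 to 4.77), and miR-106b-5p was 2.48-fold higher (1.11 to 5.35). With column totals in place of TMM 2 of these 4 still passed the rule. Summed by seed, mature miR-19 counts were 2.37-fold higher (2 to 2.79) and miR-17 counts 1.28-fold higher (1.02 to 1.61). The miR-92 seed had a ratio of 0.881 (0.501 to 1.46). The miR-19 hairpins summed were only 1.385-fold higher (1.31 to 1.46), so the tables differ in size for this pair of columns.

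Liver after acetaminophen with G-CSF differed in the miR-92a members. miR-92a-3p had 21.75 counts in control, 7 after acetaminophen and 56.3 with G-CSF. It was 2.63-fold higher than in control (1.55 to 4.44) and 2.92-fold higher than after acetaminophen alone (1.32 to 7.54). Its hairpin mir-92a-1, at 926.9, 75.3 and 1803.85 counts, was 2.16-fold higher than control (2 to 2.35) and 2.54-fold higher than acetaminophen alone (2.03 to 3.26). mir-92a-2 gave 2.13-fold and 2.6-fold. These were the 2 of 11 hairpins called in each comparison, where 18.6% of 458 and 17.4% of 379 tested were higher and 21.8% and 14% lower. Among 8 mature members 1 was higher and 1 lower than control, where 15.8% and 12.9% of 171 tested were, the lower being miR-93-5p at 2.02-fold (1.54 to 2.68; 79 against 162 counts). Against acetaminophen alone 2 were lower, where 13% of 162 tested were lower and 17.3% higher. These were miR-17-5p, 2.21-fold lower (1.18 to 3.93), and miR-19a-3p, 2.39-fold lower (1.88 to 3.05).

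**Figure D4:**
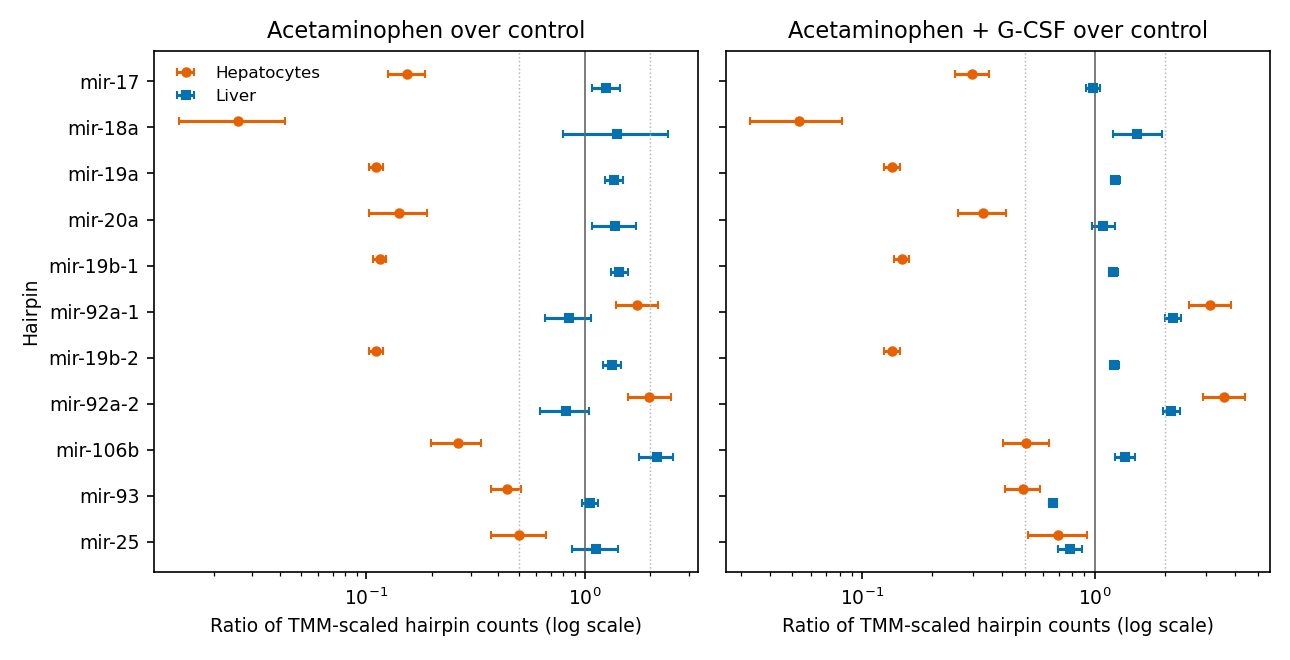
Ratios of TMM-scaled hairpin counts, treated column over the control column of the same material (log scale), with exact 95% intervals that cover counting error only; dotted lines mark 2-fold. For mir-17, mir-18a, mir-20a and the 3 miR-19 hairpins the hepatocyte ratios lie below the lower dotted line in both panels, the liver ratios lie near 1, and the mir-92a hairpins lie to the right in hepatocytes.

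A term for the difference in response, treated against control in hepatocytes minus the same in liver, was fitted with edgeR's quasi-likelihood test over all hairpins, taking the acetaminophen and the G-CSF columns as the treated pair. This fit was added after the column ratios had been seen. The term was called for 18 of 372 hairpins, or 4.84%, and for 1 of the 11 members, mir-18a, with a log2 difference of -5.61 ± 1.51 (SE, 6 columns) and a Benjamini-Hochberg adjusted p of 0.00882. Its near-copy mmu-mir-18b, which shares its counts, had -5.78 ± 1.52 and an adjusted p of 0.00747. mir-19a, mir-19b-2 and mir-19b-1 had -3.73 ± 1.26, -3.71 ± 1.26 and -3.66 ± 1.26, with adjusted p of 0.0564, 0.0564 and 0.0577 by the same test. mir-17 had -2.65 ± 1.35 and mir-20a -2.73 ± 1.39 (adjusted p 0.265 for each), and mir-92a-1 had 0.28 ± 1.35 (adjusted p 0.94). In mature counts the term was called for 12 of 154 miRNAs, or 7.79%, and for 0 of 8 members tested, with miR-19a-3p at -3.28 ± 1.12 (adjusted p 0.071) and miR-19b-3p at -3.13 ± 1.1 (adjusted p 0.073). Leaving out each treated column in turn gave -5.77 to -5.11 for mir-18a and -3.78 to -3.45 for mir-19a. The same fits gave -4.23 to -2.87 for miR-19a-3p and -3.96 to -2.99 for miR-19b-3p. Each of them leaves a single treated column in 1 material, so only effect sizes are given. Whether mir-19a and miR-19a-3p passed the threshold depended on the column left out. mir-18a in treated hepatocytes, at 79.7 and 150.7 CPM, was near its 89.5 to 145.9 CPM in liver, so its value rests on the single control hepatocyte column at 2524 CPM. The 2 control columns stand alone in the 6-column fit, which has 2 residual degrees of freedom, and fewer when a column is left out. Dose, culture and animal differ with material.

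Some lists of mature miRNA markers of non-hepatocyte cells moved too. In liver the 4 erythroid markers, miR-451a and miR-144 among them, made up 0.195% of mature counts in control, 6.37% after acetaminophen and 1.11% with G-CSF, and the 3 myeloid markers 0.0932%, 0.551% and 0.354%. The myeloid list split with G-CSF. There miR-223-3p had 588, 2564 and 3244 CPM, miR-142a-3p 304, 2691 and 297, and miR-142a-5p 40.5, 254 and 0. The lymphoid marker had 0.0831%, 0.0914% and 0.105% in liver, and the 2 endothelial markers 2.89%, 2.49% and 2.03%. Of the endothelial pair miR-126a-3p had 27691, 20462 and 19303 CPM in liver, whereas miR-126a-5p had 1237, 4417 and 984. In hepatocytes the erythroid list was at 0 to 0.0188%, the lymphoid marker at 0, and the 2 endothelial markers at 0.333% in control against 1.76% and 1.24% in treated columns. The 4 stellate and smooth muscle markers stood at 0.00686%, 0.138% and 0.0187% in hepatocytes and at 1.78% to 2.3% in liver. Within that liver sum miR-143-3p (1682.5 to 8225 CPM) and miR-199a-3p (395 to 1244) rose from control to acetaminophen. Over the same step miR-145a-5p (18158 to 7108) and miR-214-3p (2412 to 1269) fell. The hepatocyte markers, with miR-122-5p foremost, were at 18.3%, 26.4% and 13.8% in hepatocytes and at 27.3%, 42.1% and 14.8% in liver. Their presence in all 6 columns fits the labels. From control to acetaminophen in liver miR-122-5p (236310 to 401210 CPM) and miR-122-3p (122 to 1269) rose, while miR-192-5p (11899 to 7819) and miR-194-5p (24721 to 10637) fell. The part of these other cell types in the member values was not tested, and in such bulk samples fewer cells of a type and less RNA per cell cannot be told apart.

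edgeR fits without that term, on material and treatment over the 6 columns of hepatocytes and liver, called no member of either table. Such a fit takes a shared treatment response for both materials, so opposite responses enter its residual spread. Between materials DESeq2's Wald test on the same design called 34 of 154 mature miRNAs and 96 of 372 hairpins. Members among them were 2 of 8 and 3 of 11, a similar share. miR-18a-5p had too few counts to enter the mature fit. Between materials edgeR called 14 of 154 mature miRNAs (9.09%) and 30 of 372 hairpins (8.06%), with 0 of 8 and 0 of 11 members among them. miR-19b-3p came nearest, higher in hepatocytes by a log2 value of 2.11 ± 1.04 (adjusted p 0.165), then miR-19a-3p at 2.0 ± 1.02 (adjusted p 0.174). miR-93-5p was lower by 1.47 on the log2 scale, at -1.47 ± 1.03 (adjusted p 0.329). The median log2 difference was 0.62 for the members and -0.7 over all mature miRNAs tested. For acetaminophen against control edgeR called 1 of 154 mature miRNAs (0.649%) and 1 of 372 hairpins (0.269%), no member among them. For G-CSF added to acetaminophen it called 0 (0%) in each table, where 4 mature miRNAs and 3 hairpins had an unadjusted p under 0.05, and DESeq2 also called 0.

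Exosome columns other than serum control were too shallow for the members. Treated serum exosomes had 1 and 0 mature member counts, and hepatocyte exosomes 1, 0 and 0. Hairpin member counts were 3004.85, 0 and 8.33 in serum control, acetaminophen and acetaminophen with G-CSF columns, the treated totals being 460 and 4026. By the ratio rule on column totals 3 of 11 hairpins were lower with acetaminophen and G-CSF than in control, where 13.6% of 242 tested were lower and 30.6% higher. mir-93 had 0 against 1211 counts, at least 8.97-fold lower, mir-25 0 against 340.8, at least 2.52-fold lower, and mir-17 1 against 349.6, 7.77-fold lower (1.39 to 308). After acetaminophen 0 of 11 were called, where 5.05% of 198 were lower and 6.57% higher, and with 460 counts in that column a 2-fold loss of a single member was not detectable at this depth. The 11 hairpins summed were at least 2.54-fold lower there, computed against a floor of 3 counts. The erythroid markers described above made up 6.23% of mature counts in control serum exosomes and 0 in both treated columns. The myeloid, endothelial and lymphoid lists, at 0.184%, 0.169% and 0.0307% in control, were also at 0 in both. A 0 there allows up to 0.873% and 0.552%, above the control share of the latter lists. The hepatocyte list had 0.499%, 0 and 0.145%, and the stellate and smooth muscle list 0.11%, 0.688% and 0. The part of any list in the member values was not tested. With the serum columns exchanged the 3 calls fall under acetaminophen instead. Hepatocyte exosomes held 1 member hairpin count in each of their 3 columns, and no ratio was formed.

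The other arms of the member hairpins were mostly near 0. miR-17-3p, the passenger arm of mir-17, had 32 counts beside 32.75 of miR-17-5p in control hepatocytes, or 49.4% of both arms (exact interval 36.6% to 61.9%), and 47.6% in control liver (32.9% to 63%). It had 15.1% in liver after acetaminophen (4.36% to 34.9%) and 24.3% with G-CSF (11.8% to 41.2%). In hepatocytes it had 0 counts in both treated columns. miR-106b-3p had 9 counts in liver with G-CSF, 31.4% of both arms (15.3% to 50.8%), and 1 or 2 elsewhere in liver and control hepatocytes. No read of miR-19a-5p was counted in control hepatocytes beside 949.45 of miR-19a-3p, which allows a share of up to 0.388%. These shares use 5p counts that are split with near-copies, whereas the 3p counts of both arms named were whole.

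Over the 6 columns of hepatocytes and liver the mature miRNA whose log2 level was most like the mean of the members was miR-21a-5p, with Pearson's r of 0.98 among 64 candidates of at least 50 mean counts, then miR-21b at 0.96, miR-101a-3p at 0.78, miR-484 at 0.62 and miR-29b-3p at 0.48. Among 211 hairpins the nearest were mir-21a at 0.94, mir-3965 at 0.94, mir-18b at 0.93, mir-21b at 0.93 and mir-21c at 0.91. Within the set, miR-19b-3p followed the mean at 0.96 and miR-19a-3p also at 0.96, whereas miR-92a-3p had -0.55 and miR-93-5p -0.28. Each member is part of that mean, which raises its own r. The same holds for mir-18b, which shares its counts with the member mir-18a. These are descriptions over 6 columns that share library preparation.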

How the data were processed

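Small RNA was read on Ion Torrent PGM and Proton instruments, and the deposited tables hold expected counts per mature miRNA and per hairpin, 1 column per condition with both instruments combined, per the file headers and labels. The labels' protocols name a Norgen total RNA kit and, for libraries, Ion Total RNA-Seq Kit v2. The sources used here name no aligner, build, annotation or rule for reads with several matches. Counts were rounded for model fits only.

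Ratios within a material used TMM scaling (hepatocytes, liver) or column totals (exosomes), with exact conditional 95% intervals. Models used edgeR 4.0.16 (quasi-likelihood, TMM, at least 10 counts in at least 2 columns, Benjamini-Hochberg over all rows, threshold 0.05) in R 4.3.3, on material and treatment, with DESeq2 1.42.0 as an alternative; scripts were tested on simulated data. P-values measure the spread between single columns. The members, seed lists and markers were chosen with earlier results of these data known, and the difference-in-response term and the locus shares without miR-19 hairpins were added after seeing the data. All members and the 5 rows of each table most like them were named, the other arms and same-seed miRNAs only in part. Sums of the miR-17 seed cover 6 of the 7 reference miRNAs with that seed.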

Additional observations from a re-analysis of the deposited data

Results flagged for a closer look

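The response of mir-18a to treatment differed between hepatocytes and liver by a log2 value of -5.61 ± 1.51 (SE, 6 columns; edgeR quasi-likelihood test, adjusted p 0.00882, over 372 hairpins). It was negative with an adjusted p between 0.000137 and 0.0482 under the 9 alternatives that could be fitted. Leaving out either control column, which this term needs, could not be fitted, and mir-18a shares its counts with mir-18b. mir-18a in treated hepatocytes, at 79.7 and 150.7 CPM, was near its 89.5 to 145.9 CPM in liver, so the value and its p rest on the single control hepatocyte column, with the acetaminophen and the G-CSF columns taken as replicates and the term chosen after the ratios were seen.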

How the results depend on the processing

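No paired analysis was possible because the columns carry no replicate or instrument number and both libraries of a condition share 1 column.

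edgeR's 14 mature calls between hepatocytes and liver (5 higher, 9 lower) became 24 with column totals (2 higher, 22 lower), 9 without a low-count filter, 34 with DESeq2 (17 each way) and 24 without a treatment term. The 30 hairpin calls (9 higher, 21 lower) became 87 with column totals (9 higher, 78 lower), 17 with edgeR's own filter and 96 with DESeq2, and column totals moved the median log2 difference of all mature miRNAs from -0.7 to -1.33. The mature members' median went from 0.62 to -0.03. DESeq2 called 2 of 8 mature and 3 of 11 hairpin members between materials, near its share over all rows tested. For acetaminophen the single mature call became 0 without a filter and 2 with DESeq2, and the single hairpin call 9 with DESeq2 size factors, 12 with column totals, 3 without a filter and 28 with DESeq2. The difference-in-response calls, 12 mature and 18 hairpin, became 3 mature with column totals, 4 mature and 9 hairpin without a filter, 32 hairpin with edgeR's own filter and 34 hairpin with DESeq2. The ratio rule within 1 material called 53 mature and 188 hairpin rows for acetaminophen in hepatocytes and 81 and 156 in liver, and for added G-CSF 13 and 51 in hepatocytes and 49 and 119 in liver.

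Leaving out each column in turn gave 0 to 35 mature and 0 to 76 hairpin calls between materials, 0 to 19 and 0 to 48 for acetaminophen, 0 and 0 to 1 for added G-CSF, and 7 to 23 and 16 to 67 for the difference in response. For acetaminophen the upper end of each range came from the fit without liver control. That fit takes its control level from the single hepatocyte control column. It therefore estimates a different comparison and does not measure the influence of liver control. Between materials no mature calls were left without either treated liver column, and no hairpin calls without hepatocyte acetaminophen or liver with G-CSF. In the difference in response miR-19a-3p, miR-19b-3p, mir-19a, mir-19b-1 and mir-19b-2 were negative in all 9 alternatives and passed the threshold in some of them. The 4 alternatives without a treated column keep a single treated column in 1 material, so calls of this term there carry little weight.

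Member calls by ratio numbered 15 mature and 27 hairpin, and 5 and 17 with a 3-fold rule. In liver the mature members called, 4 for acetaminophen, 3 for added G-CSF and 2 for both agents against control, became 2, 1 and 1 with column totals and 0, 0 and 0 at 3-fold, and 5 for added G-CSF with DESeq2 size factors. Hairpin members called for added G-CSF in hepatocytes, 2, became 1 with column totals, 6 at 1.5-fold and 0 at 3-fold. In liver 1 for acetaminophen, 2 for added G-CSF and 2 for both agents became 0, 0 and 0 at 3-fold, and at 1.5-fold the last pair became 4 and 4. Exchanging the serum columns gave 3 for acetaminophen and 0 for both agents. Each member ratio past the rule kept its direction where a value could be given. The fold and count thresholds leave a ratio unchanged, and other scalings moved it by less than 2-fold. Serum ratios used column totals throughout. Apart from the serum exchange, the direction could therefore not change, and this is no check of it.

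The miR-106b-25 share in control serum exosomes, hepatocytes and liver became 66.8%, 4.79% and 40.9% without mir-19b-2 and mir-92a-2, 74.3%, 8.44% and 55.3% without the 4 miR-19b and miR-92a hairpins, 65.9%, 30.8% and 64.2% without the miR-19 hairpins, and 72.9%, 5.25% and 51.6% in mature counts. The miR-19 seed share of the members alone in control hepatocytes, 92.6%, became 89.1% with same-seed miRNAs added, 89.1% in hairpin counts and 85.6% in hairpin counts with same-seed hairpins. In control liver 54.6% became 49.1% and 45.7% in the last pair. Without the most abundant miRNA of a column, the mature member share was 2.18%, 11.3% and 1.55% in control serum exosomes, hepatocytes and liver, and the hairpin share 2.23%, 12.2% and 1.96%.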
